A study of Homo sapiens with 8 samples.

Results

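The replication-dependent histone cluster genes are the genes whose symbols begin with HIST1H, HIST2H, HIST3H or HIST4H followed by the histone type. They were selected by symbol from the deposited count tables, and 73 of the 23710 listed genes met the rule: 6 H1 genes, 18 H2A genes, 20 H2B genes, 14 H3 genes and 15 H4 genes. The HIST1 cluster on chromosome 6 held 56 of them, the HIST2 cluster on chromosome 1 held 13, the HIST3 cluster on chromosome 1 held 3, and HIST4H4 on chromosome 12 stood alone. RNA was sequenced from a human lymphoblastoid cell line, made by transforming B cells with Epstein-Barr virus, kept in RPMI medium. The 4 groups, with 2 libraries each, were control cells, cells at the end of 24 h with 5 µM hexavalent chromium, and cells 3 days and 7 days post treatment, all from the same line. The labels give these days as post treatment while the series' own description counts its times from when exposure began, and which start the days refer to was not settled here; the labels' wording is kept. The labels call the pairs biological replicates without saying whether they were separate cultures. Each p-value therefore rests on the spread between libraries of the same group, estimated over the groups together, in a single line.

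Replication-dependent histone genes supply the core histones H2A, H2B, H3 and H4 and the linker histone H1 that package new DNA, and their mRNAs accumulate in S phase. Their mRNAs are the only known metazoan mRNAs that normally end in a conserved stem-loop in place of a poly-A tail. The stem-loop is bound by SLBP, the stem-loop binding protein, and the end is cut by a machinery that includes the U7 snRNP. Some of these genes also make a longer, polyadenylated transcript from a site downstream. Here mRNA was bound to poly-T beads before library synthesis, per the labels' protocols, so an mRNA that ends at the stem-loop is poorly captured and the counts cannot be read as total histone mRNA.

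The stem-loop sites show where a mature histone mRNA normally ends and how much further the annotated transcript runs, which bears on what a poly-A selected library can hold. The histone stem-loop was found in a GENCODE v29 transcript of 32 of the 73 genes, and in 39 of all 58676 GENCODE genes, or 0.0665%. No match was found in the transcripts of HIST1H4C and HIST1H2BK, the genes with most H4 and H2B counts. Their longest GENCODE transcripts have 435 and 381 bases, beside RefSeq spans of 405 and 8566 bases. The search took only a set pattern of 16 bases with few variable letters, in the annotated transcripts alone. The missing match therefore does not show that these genes lack a stem-loop. HIST1H4C is also not in the promoter table. Of 30 bases printed for each, the stem-loop core is in capitals.
HIST2H2BE: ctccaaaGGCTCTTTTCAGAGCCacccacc
HIST1H2BG: actcaaaGGCTCTTTTCAGAGCCactcaag
HIST1H2AC: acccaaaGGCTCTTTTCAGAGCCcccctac
HIST1H2BC: ccccaaaGGCTCTTTTAAGAGCCacccaga
HIST1H2BD: tcccaaaGGCTCTTTTAAGAGCCacgcatg
HIST1H4B: ttccaatGGCCCTTTTCAGGGCCgcccact
After the last base of the stem-loop core, the transcript that each site was read from ran on for 1729 bases in HIST2H2BE, 1059 in HIST1H2BG, 1114 in HIST1H2AC, 116 in HIST1H2BC, 39 in HIST1H2BD and 86 in HIST1H4B. The core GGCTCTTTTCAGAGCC was the most common, in 6 H2A, 8 H2B and 3 H3 genes. The core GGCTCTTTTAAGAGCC occurred in 3 H2B and 2 H3 genes. All 8 H4 genes with a match had a core that begins GGCC, which no gene of another type had: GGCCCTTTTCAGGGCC in 5 and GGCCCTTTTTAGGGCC in 3.

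The promoters of the H2B genes described first below are printed because these 3 genes had lower levels in every exposed library than in both control libraries. Each run is the 250 bases before the RefSeq transcript start in build GRCh38.p14, on the gene's own strand, with the octamer ATTTGCAT and the TATA box TATAAA of either strand in capitals. The octamer is the binding motif of the POU factors, among them OCT1 (POU2F1), which with its coactivators acts on H2B genes in S phase.
HIST1H2BK, chr6:27146859-27147108, minus strand: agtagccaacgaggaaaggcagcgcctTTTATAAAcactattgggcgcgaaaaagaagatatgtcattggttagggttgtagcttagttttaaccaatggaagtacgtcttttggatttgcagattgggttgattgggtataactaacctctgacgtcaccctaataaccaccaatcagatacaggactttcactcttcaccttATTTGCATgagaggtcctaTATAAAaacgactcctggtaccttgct
HIST2H2BE, chr1:149886683-149886932, minus strand: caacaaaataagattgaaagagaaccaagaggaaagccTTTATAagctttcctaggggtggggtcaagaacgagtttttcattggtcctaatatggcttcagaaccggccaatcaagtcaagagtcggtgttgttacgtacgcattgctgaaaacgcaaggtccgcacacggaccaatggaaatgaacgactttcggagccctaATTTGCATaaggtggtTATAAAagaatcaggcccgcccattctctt
HIST1H2BC, chr6:26123927-26124176, minus strand: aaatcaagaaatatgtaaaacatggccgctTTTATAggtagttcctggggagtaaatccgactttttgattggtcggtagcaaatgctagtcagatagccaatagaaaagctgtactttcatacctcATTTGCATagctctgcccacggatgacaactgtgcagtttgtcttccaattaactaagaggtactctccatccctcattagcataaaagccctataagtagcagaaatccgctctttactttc
The HIST1H2BC run covers nearly the same bases as the promoter of HIST1H2AC, which starts from the other strand. On either strand of the 300-base windows, 250 bases before to 50 after the start, the octamer was present in 14 of 18 H2B genes with an entry and in 11 of 16 H2A genes. It was present in 1 of 12 H3 genes and in none of the 6 H1 and 13 H4 genes, against 2.19% of all 27305 genes. CCAAT was found in 84.6% of the 65 histone genes with an entry, against 39.7% of all genes, but in only 3 of the 13 H4 genes. TATAAA was found in 67.7% of the histone genes, against 14% of all genes. HIST1H2BG, which had higher levels in every exposed library than in both controls, also had the octamer. The octamer therefore did not set the 3 printed genes apart. A match of letters is a description of the window and not a bound site. No 2 different motifs of the octamer, CCAAT and TATAAA overlapped in any histone window.

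Counts were low for most of the genes. Of the 73 genes, 14 had no read in any library, 19 had 1 to 19 reads over all 8 libraries, and 40 had at least 20, of which 11 had at least 100. All histone genes together took 1407 and 1262 counts in the control libraries, 1007 and 1140 at 24 h, 1152 and 1385 at 3 days and 999 and 1084 at 7 days post treatment, out of 9478459 to 11110830 gene counts in a library. The H2B gene HIST1H2BK alone took 4577 of the 9436 histone counts, or 48.5%. These are read counts and not levels per length, so they do not rank the genes by transcript number. The gene filter of edgeR kept 20 of the 73 genes for testing, and 53 were too low, of which 39 had at least 1 count.

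The libraries had the profile of B cells and little of other types. All 10 B-cell marker genes reached 10 CPM (the gene's share of the counts in the scaled library, on the usual CPM scale), none of 7 T and NK cell, 6 myeloid or 7 stromal and epithelial markers did, and all 6 erythroid markers were at 0. Between 42.6% and 57.5% of reads fell on entries that name no gene. The late replicates stood apart: the replicate 1 libraries at 3 and 7 days had 39.4% and 36.5% of reads under no feature, against 44.4% to 51.5% in the other libraries, and the replicate differences of 3 and 7 days correlated at r = 0.81 across 12536 genes, which are not independent replicates. Late values are therefore given by library, and the leading fold changes with and without each late replicate.

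No histone gene passed an adjusted p of 0.05 (edgeR quasi-likelihood test, Benjamini-Hochberg over 12536 genes) in any of the 6 comparisons between groups, and no other gene did either, so 0.00% of all genes were called in each. At an unadjusted p under 0.05, 0 of the 20 tested histone genes passed at 24 h against control, 2 at 3 days and 5 at 7 days, where 0.175%, 5.29% and 4.94% of all tested genes passed. DESeq2 called 0 histone genes as well, and 0, 9 and 15 genes of any kind at 24 h, 3 days and 7 days. In a test of the 3 exposed groups together, the lowest p was 0.00750 for HIST1H4C, with an adjusted p of 0.985, and 2 histone genes were under an unadjusted p of 0.05, where 446 genes of any kind, or 3.56%, were. The fold changes below are therefore descriptions of these libraries, and no histone gene was shown to differ between groups.

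The sums by histone type followed a pattern, with HIST1H2BK holding most of the H2B counts and HIST1H4C most of the H4 counts. Single genes of a type did not all share its direction. H2B sums were lower in all exposed libraries than in both control libraries, H4 sums were higher in both late groups, and H1 and H3 sums overlapped between groups. In bulk RNA, fewer cells of a kind and less RNA per cell cannot be told apart, and this holds for cells in S phase as for any other kind. Of the 20 tested genes, 15 had a negative log2 fold change at 24 h against control, where 50% of all tested genes had a negative fold change. At 3 and 7 days 10 of the 20 did, where this held for 48.8% and 49.9% of all genes. The median log2 fold change over the 20 genes was -0.35 at 24 h, -0.10 at 3 days and -0.05 at 7 days, against 0.00, 0.01 and 0.00 over all tested genes.

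**Figure D1:**
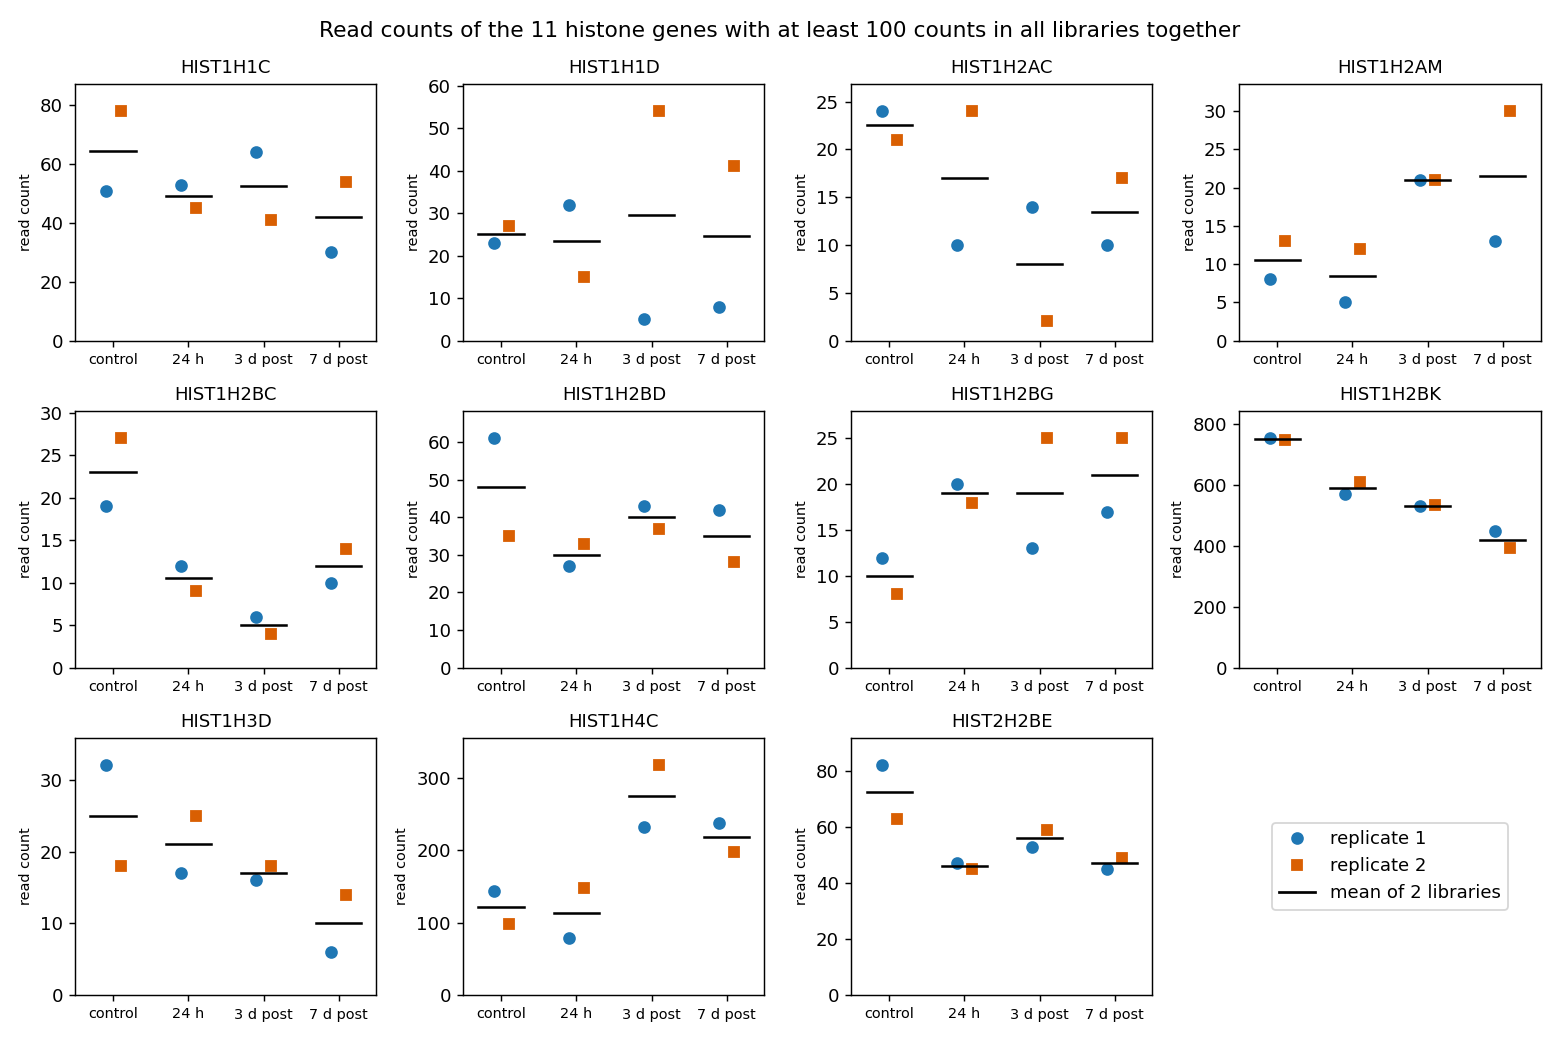
Raw read counts of the 11 histone genes with at least 100 counts over all libraries, by group on the x axis, with a circle for replicate 1, a square for replicate 2 and a bar for the mean of the 2 libraries. HIST1H4C stands at 198 to 317 in the late libraries and at 78 to 147 in the others, while HIST1H2BK stands at 391 and 447 at 7 days, against 745 and 752 in control cells.

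H2B is a core histone that pairs with H2A in the nucleosome, and its genes held most of the histone counts. The 20 H2B genes summed to 86.6 and 93.6 CPM in control cells, 71.1 and 69.9 CPM at 24 h, 70.9 and 67.7 CPM at 3 days and 65.4 and 57.5 CPM at 7 days. Every exposed library was below both control libraries, with log2 ratios of the group means of -0.35, -0.38 and -0.55. As a share of all histone counts, H2B had 70.1% and 72.4% in control cells, 70.2% and 66.0% at 24 h, 59.9% and 54.8% at 3 days and 59.3% and 52.8% at 7 days. The late shares lay below every control and 24 h share. Shares of the 5 types add up to the whole, so a higher H4 share lowers that of H2B.

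HIST1H2BK carried most of this sum. It had 752 and 745 counts in control cells, 570 and 610 at 24 h, 530 and 532 at 3 days and 447 and 391 at 7 days. No exposed library reached a control library, also in CPM, while the 3-day and 7-day libraries overlapped in CPM. In CPM its mean was 57.0 ± 0.404 at 24 h, 51.0 ± 4.95 at 3 days and 44.3 ± 7.12 at 7 days, against 71.2 ± 7.21 in control cells (SD, n = 2 each). The log2 fold changes were -0.32, -0.48 and -0.68, each with an SE of 0.22, and at 7 days edgeR gave an unadjusted p of 0.0137 and an adjusted p of 0.851. Of its 100-base windows in GENCODE v29, 71.6% matched no other gene, so part of that annotated transcript cannot be assigned to it alone. That transcript has 381 bases, and the rest of the RefSeq span of 8566 bases is not covered by this value.

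HIST2H2BE, the H2B gene of the HIST2 cluster with the longest annotated run after the stem-loop among those printed above, was also lower in every exposed library. Its counts were 82 and 63 in control cells, 47 and 45 at 24 h, 53 and 59 at 3 days and 45 and 49 at 7 days. The log2 fold changes were -0.62 ± 0.30, -0.35 ± 0.29 and -0.46 ± 0.30 (SE), and the lowest unadjusted p was 0.0712, at 24 h. HIST1H2BC had 19 and 27 counts in control cells, 12 and 9 at 24 h, 6 and 4 at 3 days and 10 and 14 at 7 days, so that the exposed libraries were again all below the control ones. At 3 days its log2 fold change was -2.17 ± 0.59 with an unadjusted p of 0.00630 and an adjusted p of 0.843 in edgeR, and the fold changes at 24 h and 7 days were -1.11 ± 0.55 and -0.81 ± 0.54.

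The other tested H2B genes did not share a direction. HIST1H2BD had 61 and 35 counts in control cells, 27 and 33 at 24 h, 43 and 37 at 3 days and 42 and 28 at 7 days. Both 24 h libraries lay below both controls, as did 1 library at 7 days. In CPM 1 library at 3 days did so too, at 3.30 CPM against 5.36 and 3.58 CPM in control cells. HIST1H2BG was higher instead, with 12 and 8 counts in control cells, 20 and 18 at 24 h, 13 and 25 at 3 days and 17 and 25 at 7 days. Every exposed library exceeded both controls, and at 7 days the log2 fold change was 1.22 ± 0.51 with an unadjusted p of 0.0432 and an adjusted p of 0.851 in edgeR. HIST1H2BJ had 11 and 11 counts in control cells, 5 and 6 at 24 h, 6 and 9 at 3 days and 10 and 6 at 7 days. HIST1H2BI had 8 and 5 counts in control cells, 2 and 6 at 24 h, 9 and 18 at 3 days and 1 and 16 at 7 days, so that replicate 1 was below all others at 7 days. Without HIST1H2BK, the other 19 H2B genes had 234 and 169 counts in control cells, 137 and 142 at 24 h, 160 and 227 at 3 days and 145 and 181 at 7 days. In CPM this sum was below both controls at 24 h, with 13.8 and 13.2 CPM, against 20.6 and 17.3 CPM in control cells, and overlapped with them at 3 and 7 days, so the late separation of the H2B sum rested on that gene.

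Among the H2B genes that did not pass the filter, those with at least 20 counts over all libraries varied by a few reads. HIST2H2BF had 7 and 4 counts in control cells, 6 and 3 at 24 h, 7 and 23 at 3 days and 3 and 8 at 7 days, and its highest value came from a single 3-day library. HIST1H2BN had 4 and 6 counts in control cells, 3 and 4 at 24 h, 6 and 4 at 3 days and 1 and 4 at 7 days. HIST1H2BE had 7 and 3 counts in control cells, 1 and 4 at 24 h, 1 and 4 at 3 days and 1 and 7 at 7 days. Neither gene separates the groups. HIST1H2BF had 2 and 0 counts in control cells, 3 and 2 at 24 h, 5 and 5 at 3 days and 2 and 3 at 7 days. HIST1H2BH had 4 and 1 counts in control cells, 0 and 1 at 24 h, 4 and 8 at 3 days and 3 and 4 at 7 days. HIST2H2BC, annotated as a pseudogene, had 4 and 3 counts in control cells, 6 and 5 at 24 h, 2 and 7 at 3 days and 5 and 2 at 7 days. The groups of these genes overlap or lie within a few reads of 0. HIST1H2BL had 6 and 1 counts in control cells, 1 and 4 at 24 h, 0 and 7 at 3 days and 1 and 0 at 7 days. HIST1H2BO had 3 and 1 counts in control cells, 2 and 2 at 24 h, 0 and 4 at 3 days and 4 and 4 at 7 days. Both had 20 counts in all.

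H4 genes encode the core histone that pairs with H3, most of them as the same protein. The 15 H4 genes summed to 14.4 and 12.4 CPM in control cells, 10.5 and 16.2 CPM at 24 h, 26.3 and 32.4 CPM at 3 days and 29.4 and 24.3 CPM at 7 days. The 4 late libraries were above the 4 others, with log2 ratios to control of -0.01 at 24 h, 1.13 at 3 days and 1.00 at 7 days. H4 held 11.7% and 9.59% of histone counts in control cells, 10.3% and 15.3% at 24 h, 22.2% and 26.2% at 3 days and 26.6% and 22.3% at 7 days. The exact 95% intervals of the late shares went no lower than 19.9%, and those of the control and 24 h shares reached 17.5% at most. These intervals cover counting error only.

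HIST1H4C made up most of the H4 counts. It had 144 and 98 counts in control cells, 78 and 147 at 24 h, 232 and 317 at 3 days and 237 and 198 at 7 days. The late libraries did not overlap with the control or the 24 h libraries. In CPM it averaged 26.1 ± 3.14 at 3 days and 23.0 ± 4.44 at 7 days, against 11.3 ± 1.85 in control cells (SD, n = 2 each). The log2 fold change against control was 1.20 ± 0.33 (SE) at 3 days, with an unadjusted p of 0.00631 and an adjusted p of 0.843 in edgeR, and 1.02 ± 0.33 at 7 days, with an unadjusted p of 0.0142 and an adjusted p of 0.851. Against the 24 h libraries the log2 fold change was 1.27 ± 0.33 at 3 days and 1.10 ± 0.33 at 7 days, with adjusted p of 0.726 and 0.736. At 24 h against control it was -0.08 ± 0.33, and between 7 and 3 days -0.18 ± 0.32. The comparisons against control share the control libraries and are not independent.

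The smaller H4 genes together had more counts in the exposed libraries. Without HIST1H4C the other 14 H4 genes had 20 and 23 counts in control cells, 26 and 27 at 24 h, 24 and 46 at 3 days and 29 and 44 at 7 days, so every exposed library was above both controls, also in CPM, except that the 3-day libraries overlapped with them when total gene counts were the library sizes. HIST1H4A had 5 and 4 counts in control cells, 4 and 6 at 24 h, 5 and 13 at 3 days and 12 and 19 at 7 days. Its log2 fold change at 7 days was 1.90 ± 0.65 with an unadjusted p of 0.0190 and an adjusted p of 0.851 in edgeR. HIST1H4B had 2 and 5 counts in control cells, 6 and 4 at 24 h, 5 and 12 at 3 days and 1 and 10 at 7 days, and its 7-day libraries lay on either side of the controls. HIST4H4, the lone gene on chromosome 12, had 4 and 7 counts in control cells, 3 and 3 at 24 h, 1 and 2 at 3 days and 10 and 5 at 7 days. Its highest count was at 7 days and its lowest at 3 days, and it did not pass the filter, nor did the next pair. HIST1H4E had 4 and 2 counts in control cells, 2 and 1 at 24 h, 4 and 6 at 3 days and 1 and 8 at 7 days. HIST1H4H had 3 and 0 counts in control cells, 3 and 5 at 24 h, 4 and 7 at 3 days and 5 and 0 at 7 days.

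**Figure D2:**
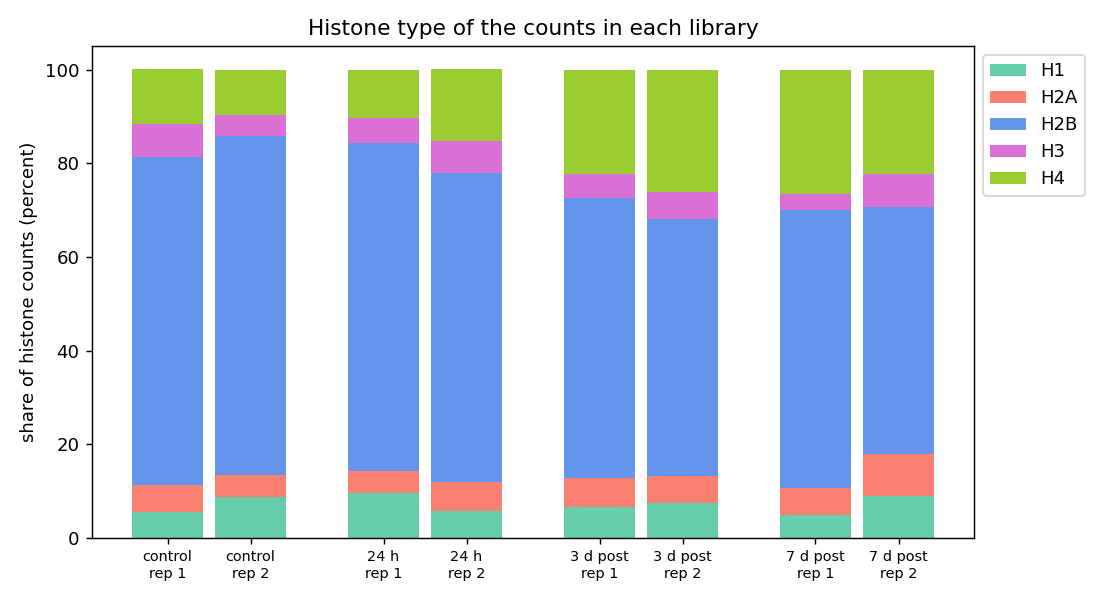
Share of each library's histone counts, in percent on the y axis, that fell on H1, H2A, H2B, H3 and H4 genes, with a bar for each of the 8 libraries. The H4 segment is 22.2% to 26.6% in the late libraries and 9.59% to 15.3% in the others, and the H2B segment is the largest in every library.

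H2A genes had few reads. The 18 genes summed to 7.03 and 5.94 CPM in control cells, 4.72 and 6.70 at 24 h, 7.19 and 7.14 at 3 days and 6.41 and 9.75 at 7 days, and the groups overlapped except that both 3-day libraries were above both 24 h libraries and just above both controls, neither of which held with total gene counts as library sizes. HIST1H2AC, which shares its promoter with HIST1H2BC, had 24 and 21 counts in control cells, 10 and 24 at 24 h, 14 and 2 at 3 days and 10 and 17 at 7 days. HIST1H2AM had 8 and 13 counts in control cells, 5 and 12 at 24 h, 21 and 21 at 3 days and 13 and 30 at 7 days, and in CPM the 4 late libraries were above both controls. HIST1H2AG had 9 and 2 counts in control cells, 8 and 13 at 24 h, 11 and 13 at 3 days and 18 and 16 at 7 days. Its log2 fold change at 7 days was 1.79 ± 0.67 with an unadjusted p of 0.0273 and an adjusted p of 0.851 in edgeR, on a control mean of 0.498 CPM. HIST2H2AB had 9 and 9 counts in control cells, 4 and 5 at 24 h, 0 and 19 at 3 days and 3 and 14 at 7 days, so that at both late times replicate 1 was below and replicate 2 above all other libraries. Of the untested genes, HIST1H2AE had 7 and 5 counts in control cells, 6 and 12 at 24 h, 7 and 7 at 3 days and 9 and 8 at 7 days. Both 7-day libraries were above both controls. In CPM both 3-day libraries were just above them too, at 0.719 and 0.625 against 0.615 and 0.512, and the 24 h libraries overlapped with the controls. HIST1H2AH had 4 and 2 counts in control cells, 5 and 1 at 24 h, 6 and 8 at 3 days and 2 and 5 at 7 days. HIST1H2AI had 10 and 2 counts in control cells, 5 and 2 at 24 h, 2 and 1 at 3 days and 2 and 0 at 7 days, with the highest value in a control library.

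H3 genes encode the partner of H4 in the nucleosome. The 14 genes summed to 8.61 and 5.94 CPM in control cells, 5.33 and 7.16 at 24 h, 6.17 and 7.05 at 3 days and 3.75 and 7.64 at 7 days, with overlap between all groups. HIST1H3D had 32 and 18 counts in control cells, 17 and 25 at 24 h, 16 and 18 at 3 days and 6 and 14 at 7 days, and its 7-day log2 fold change was -1.15 ± 0.54 with an unadjusted p of 0.0637. HIST1H3E had 18 and 16 counts in control cells, 13 and 10 at 24 h, 15 and 4 at 3 days and 7 and 7 at 7 days, below the controls in each exposed library. HIST1H3I had 7 and 1 counts in control cells, 3 and 5 at 24 h, 7 and 19 at 3 days and 3 and 10 at 7 days, and in CPM both 3-day libraries were above both controls while the 7-day libraries overlapped with them. HIST1H3G had 12 and 4 counts in control cells, 5 and 6 at 24 h, 3 and 10 at 3 days and 3 and 10 at 7 days, without separation. Among untested genes, HIST1H3H had 7 and 6 counts in control cells, 2 and 15 at 24 h, 1 and 7 at 3 days and 1 and 7 at 7 days. Its highest and lowest values were 15 and 1. HIST1H3A had 7 and 1 counts in control cells, 1 and 5 at 24 h, 3 and 4 at 3 days and 7 and 6 at 7 days. HIST1H3B had 3 and 4 counts in control cells, 2 and 2 at 24 h, 4 and 9 at 3 days and 2 and 9 at 7 days. HIST1H3C had 6 and 1 counts in control cells, 2 and 5 at 24 h, 5 and 7 at 3 days and 2 and 6 at 7 days. In none of these did the groups separate beyond a few reads. HIST2H3D had 4 and 7 counts in control cells, 6 and 4 at 24 h, 2 and 1 at 3 days and 1 and 5 at 7 days.

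H1 is the linker histone that binds DNA between nucleosomes. The 6 H1 genes summed to 6.94 and 11.4 CPM in control cells, 9.65 and 6.04 at 24 h, 7.81 and 9.28 at 3 days and 5.41 and 9.75 at 7 days, with overlap throughout. HIST1H1C had 51 and 78 counts in control cells, 53 and 45 at 24 h, 64 and 41 at 3 days and 30 and 54 at 7 days. HIST1H1D had 23 and 27 counts in control cells, 32 and 15 at 24 h, 5 and 54 at 3 days and 8 and 41 at 7 days, so its late replicates fell on opposite sides of every other library. HIST1H1E had 1 and 4 counts in control cells, 11 and 2 at 24 h, 6 and 7 at 3 days and 7 and 2 at 7 days and was not tested. HIST1H1A, HIST1H1B and the testis-specific HIST1H1T had 1 to 8 counts each in all.

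**Figure D3:**
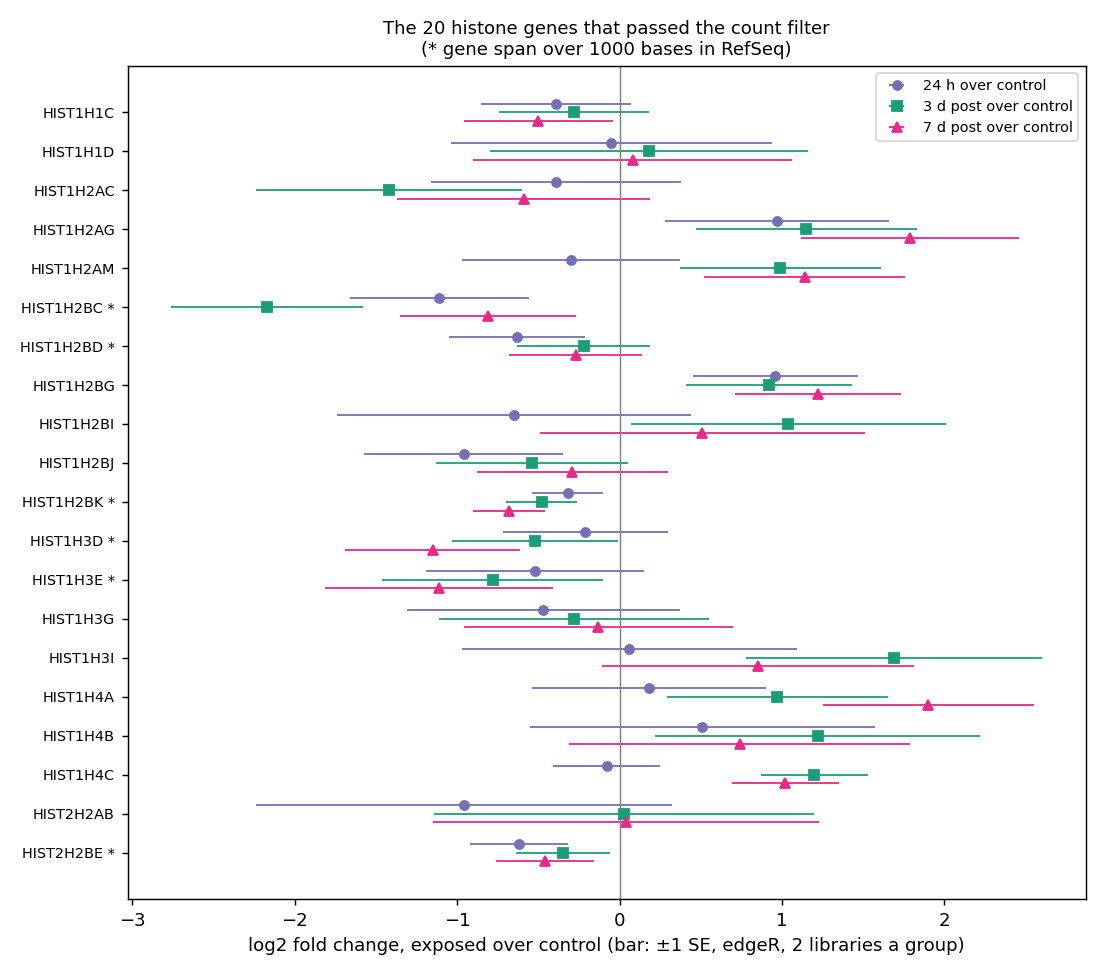
Log2 fold change over control, on the x axis, of each of the 20 histone genes that passed the count filter, at 24 h (circles), 3 days (squares) and 7 days (triangles) with bars of 1 SE from edgeR; a star marks a gene span over 1000 bases in RefSeq. The estimates for HIST1H4C lie at 1.20 and 1.02 in the late groups and those for HIST1H2BK at -0.32, -0.48 and -0.68.

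By cluster, the shares were steady. The HIST1 cluster summed to 114 and 119 CPM in control cells, 93.8 and 100 CPM at 24 h, 111 and 113 CPM at 3 days and 103 and 100.1 CPM at 7 days, and held 91.8% to 94.3% of histone counts in every library. The HIST2 cluster summed to 9.66 and 9.01 CPM in control cells, 7.04 and 5.77 at 24 h, 6.68 and 9.73 at 3 days and 6.30 and 7.94 at 7 days. Both clusters were lower than control at 24 h and 7 days, and the HIST2 groups overlapped at 3 days. The 3 genes of the HIST3 cluster had 0 to 5 counts together in a library, and HIST3H3, a testis-specific H3 gene, had none.

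Dividing the genes by their span in RefSeq gave opposite late directions. The division was made after the counts had been seen and therefore without a test. Transcript lengths in GENCODE v29 would divide the genes otherwise. HIST1H2BK spans 8566 bases in RefSeq, but its longest GENCODE transcript has 381. HIST1H2AC and HIST1H2BG span 519 and 489 bases in RefSeq, but have GENCODE transcripts of 1668 and 1534 bases. A division by those lengths was not made. In RefSeq, 10 of the 73 genes span more than 1000 bases, and 7 of these had counts: HIST1H2BC, HIST1H2BD, HIST1H2BK, HIST1H3D, HIST1H3E, HIST2H2BE and HIST2H2BF. The 10 genes summed to 85.3 and 92.9 CPM in control cells, 69.6 and 68.3 at 24 h, 68.9 and 60.4 at 3 days and 61.8 and 51.4 at 7 days. Every exposed library was below both controls, and this also held without HIST1H2BK, with sums of 19.2 and 16.7 CPM in control cells, 12.3 and 11.6 at 24 h, 14.4 and 12.9 at 3 days and 12.5 and 12.1 at 7 days. The 63 genes of up to 1000 bases summed to 38.3 and 36.2 CPM in control cells, 31.7 and 37.7 at 24 h, 49.5 and 63.2 at 3 days and 48.5 and 57.6 at 7 days, so the late libraries were above the others. Without HIST1H4C these sums were 25.7 and 26.2 CPM in control cells, 23.8 and 24.0 at 24 h, 25.7 and 34.9 at 3 days and 22.3 and 37.7 at 7 days, and the late groups overlapped with control. With library sizes taken as total gene counts, which moves the median of all genes by -0.09 at 3 days and -0.12 at 7 days, the long-span log2 ratios were -0.56 and -0.78 in place of -0.46 and -0.66, and the short-span ratios 0.51 and 0.40 in place of 0.60 and 0.51.

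**Figure D4:**
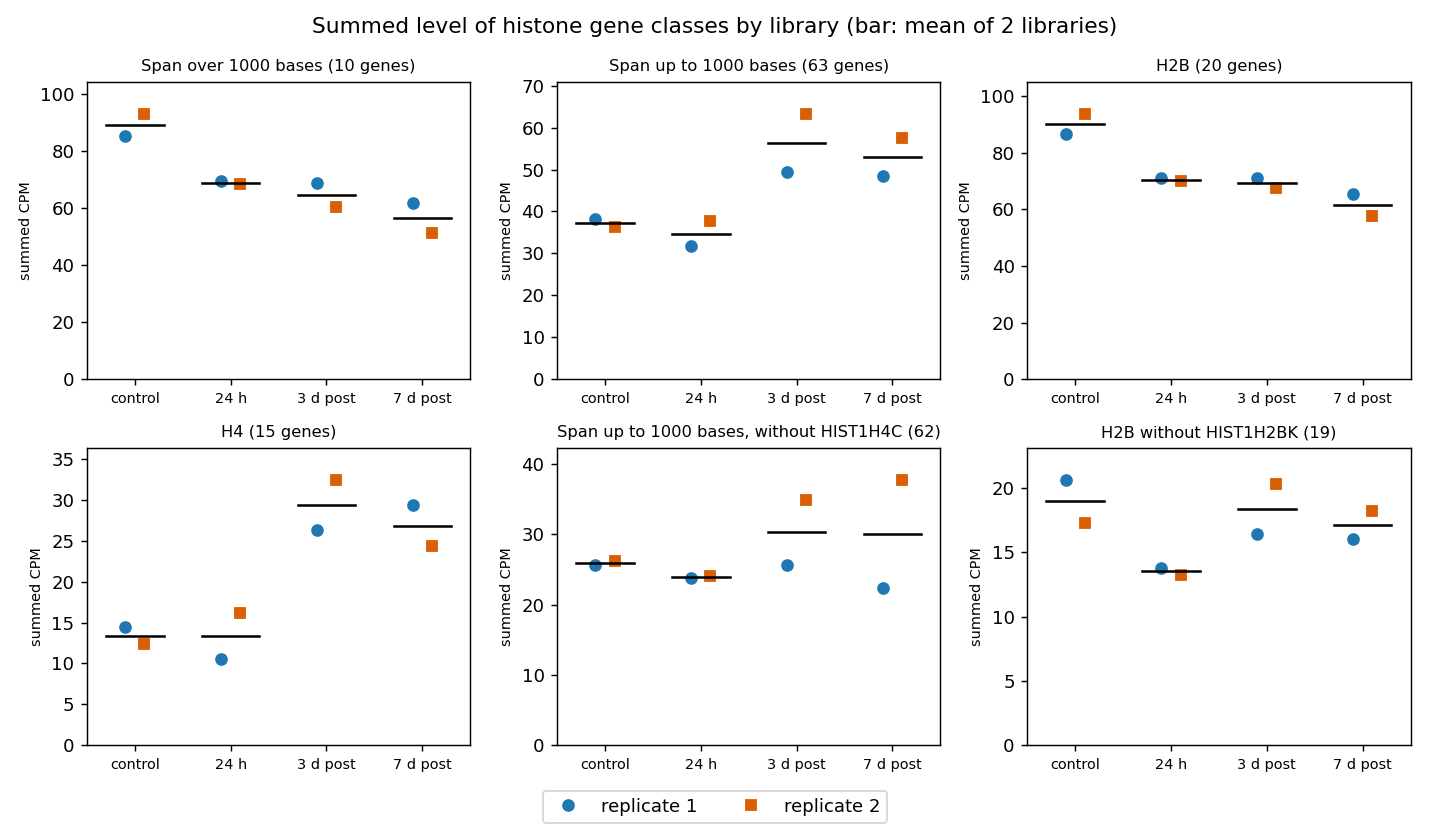
Summed CPM of histone gene classes in each library, by group on the x axis, with circles for replicate 1, squares for replicate 2 and bars for the mean of the 2 libraries. Genes spanning over 1000 bases lie below both controls in all exposed libraries, H4 genes stand at 24.3 to 32.4 CPM in the late libraries, and the classes without HIST1H4C or HIST1H2BK show what remains without the gene with most counts.

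All histone genes together summed to 101 and 106 CPM at 24 h, against 124 and 129 CPM in control cells, a log2 ratio of -0.29. At 3 days the sum was 118 and 124 CPM and at 7 days 110.3 and 109 CPM, with ratios to control of -0.06 and -0.21. Leaving out HIST1H2BK turned the late ratios to 0.34 and 0.24 and left the 24 h ratio at -0.25. Of the 20 tested genes, 2 had both 24 h libraries above both controls and 7 had both below, where 11.4% and 12.5% of all tested genes did. At 3 days 8 genes were above and 7 below, where 16.7% and 17.2% of all genes were, and at 7 days 5 were above and 6 below, where 16.6% and 17.9% were. Against the 24 h libraries, 6 of the 20 genes had a negative log2 fold change at 3 days and 5 at 7 days, where 48.7% and 49.8% of all genes did, with medians of 0.25 and 0.32 over the 20.

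The late replicates differed in a part of the histone genes in the same way at 3 and 7 days. HIST1H1D was lower in replicate 1 than in replicate 2 at both times, by a log2 difference of -2.82 at 3 days, and HIST2H2AB by -3.27 at 3 days and -1.60 at 7 days. HIST1H2BI, HIST1H3G, HIST1H3I and HIST1H4B were likewise lower in replicate 1 at both times, with differences between -0.69 and -2.56. HIST1H2BK at 0.20 and 0.33, HIST2H2BE at 0.05 and 0.01 and HIST1H4C at -0.24 and 0.39 had no such gap. Other genes went otherwise at 3 and 7 days, such as HIST1H2AC at 2.13 and -0.55, HIST1H3E at 1.65 and 0.11 and HIST1H1C at 0.81 and -0.68. Replicate 1 was lower in 11 of the 20 genes at 3 days and 13 at 7 days, beside 10 in control cells and 12 at 24 h. Over the 20 genes the median difference was -0.14 at 3 days and -0.51 at 7 days, against -0.01 and 0.01 over all tested genes. In control cells the median over the 20 was 0.02 and at 24 h -0.13. POU2AF1, the B-cell coactivator of the octamer factors, differed with the replicates, at 235 CPM in replicate 1 and 600 in replicate 2 at 3 days and 215 and 552 at 7 days, with 431 and 501 in control cells and 547 and 393 at 24 h. POU2F1 stood at 129 and 268 CPM at 3 days and 138 and 241 at 7 days, against 191 and 194 in control cells. Their part in the histone gaps was not tested. Without replicate 1 of both late groups HIST1H4C had log2 fold changes of 1.32 and 0.81 at 3 and 7 days, and without replicate 2 of both 1.08 and 1.22. HIST1H2BK had -0.58 and -0.85 without replicate 1, and -0.38 and -0.51 without replicate 2. HIST1H2BC had -2.58 and -0.64 without replicate 1, and -1.81 and -0.97 without replicate 2. The direction of these 3 genes was thus the same in either late replicate, while HIST1H1D had 1.02 and 0.79 without replicate 1, and -2.18 and -1.40 without replicate 2. With a single late library in each group, its spread is assumed to be that of the other groups.

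**Figure D5:**
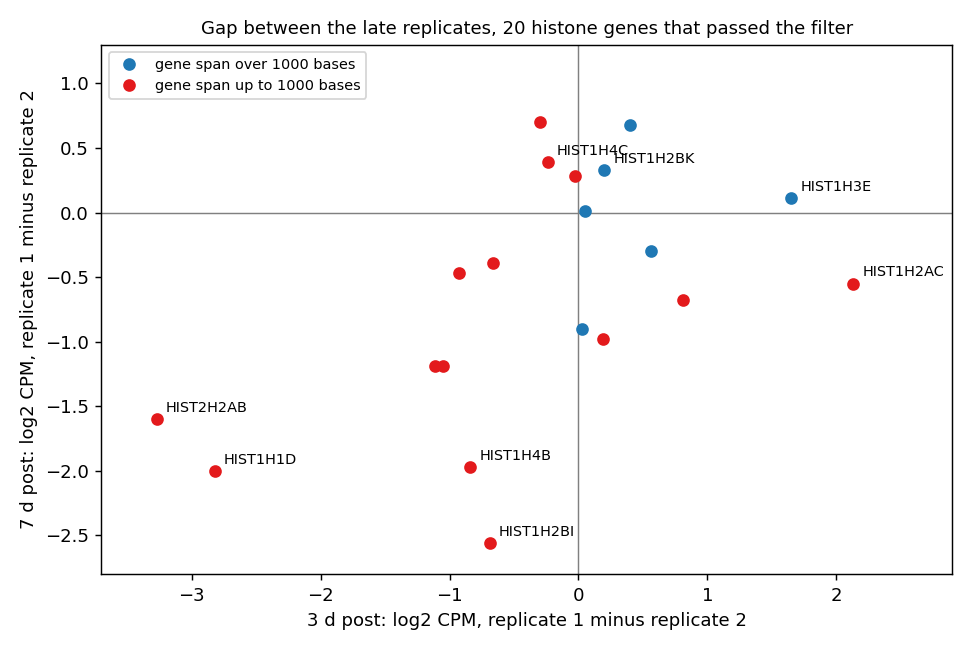
Difference in log2 CPM between replicate 1 and replicate 2 at 3 days (x axis) and at 7 days (y axis) for the 20 tested histone genes, with blue points for genes spanning over 1000 bases and red points for shorter ones. HIST1H1D and HIST2H2AB lie far into the corner where replicate 1 is lower at both times, and HIST1H2BK and HIST1H4C lie near 0.

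Genes that transcribe, process and load histones were compared from lists chosen by function. None of 32 genes of histone pre-mRNA processing and decay, 15 of S-phase histone transcription, 26 histone chaperones and assembly factors, 9 tested replication-independent histone variants and 24 genes of S-phase DNA replication passed an adjusted p of 0.05 in edgeR in any comparison, as no gene did. SLBP had 216 and 167 CPM in control cells, 128 and 201 at 24 h, 280.0 and 186 at 3 days and 323 and 215 at 7 days. NPAT, the coactivator of histone gene transcription, had 122 and 161 CPM in control cells, 187 and 156 at 24 h, 122 and 137 at 3 days and 127 and 133 at 7 days. For neither gene did an exposed group separate from control. ZNF473, a factor of U7-dependent processing, had 25.9 and 12.1 CPM at 3 days and 28.8 and 13.4 at 7 days, against 13.4 and 10.9 in control cells, with the high values in replicate 1. LSM10 and LSM11, proteins of the U7 snRNP, and CASP8AP2, a protein of the histone locus body, had log2 fold changes between -0.48 and 0.49 in all comparisons named here.

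Genes of chromatin assembly were on the higher side in late libraries. The chaperones had a median log2 fold change of -0.06 at 24 h, 0.21 at 3 days and 0.28 at 7 days over 26 genes, and 5 of the 26 had a negative one at each late time, where 48.8% and 49.9% of all genes did. The processing list had medians of -0.01, 0.18 and 0.25 over 32 genes, 9 of them negative at each late time. ASF1B, a chaperone of H3 and H4, had 442 and 345 counts at 3 days and 391 and 279 at 7 days, against 298 and 192 in control cells, with log2 fold changes of 0.73 ± 0.34 and 0.63 ± 0.34. CHAF1A, a subunit of chromatin assembly factor CAF-1, had log2 fold changes of 0.45 ± 0.31 and 0.44 ± 0.31. Its levels were 56.8 and 48.3 CPM at 3 days and 58.6 and 46.3 at 7 days, against 45.6 and 31.5 in control cells. NASP, a chaperone of H3 and H4, had log2 fold changes of 0.20 ± 0.25 and 0.28 ± 0.25. It had 184 and 135 CPM at 3 days and 189 and 149 at 7 days, against 153 and 125 in control cells. Only replicate 1 of NASP thus exceeded both controls. The 24 genes of DNA replication summed to 4202 and 2935 CPM in control cells, 2554 and 4059.6 at 24 h, 5911 and 4514 at 3 days and 5947 and 4658 at 7 days. Their late libraries were above the controls, 2 of 24 genes had a negative log2 fold change at each late time, and the median log2 fold change was 0.48 and 0.45, beside -0.09 at 24 h. Their part in the higher H4 counts was not tested. Their sum was higher in replicate 1 at both late times. In control cells, at 24 h and at 7 days, the replicate with the higher sum also had the higher HIST1H4C level. At 3 days the higher HIST1H4C level was that of replicate 2.

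Most replication-independent variants are made from polyadenylated mRNAs through the cell cycle, which need not hold for every gene of the list. Of 20 in the list, 8 were at 0 in all libraries, H3F3A among them. Whether reads of these 8 genes can be placed was not examined, so a count of 0 does not show that they were silent. The 9 tested variants had median log2 fold changes of 0.11, 0.42 and 0.40. H2AFZ, the gene of the variant H2A.Z, had 490.4 and 401 CPM in control cells, 418 and 565 at 24 h, 652 and 592 at 3 days and 582 and 595 at 7 days, so that the late libraries were above both controls. H2AFX, the variant phosphorylated at DNA breaks, had log2 fold changes of 0.27 ± 0.36, 0.63 ± 0.36 and 0.60 ± 0.36. H3F3B, a gene of the variant H3.3, had 459 and 214 CPM at 3 days and 473 and 217 at 7 days, against 234 and 202 in control cells, with only replicate 1 high. The linker variant H1F0 had log2 fold changes of -0.75 ± 0.39 and -0.78 ± 0.40 at 3 and 7 days, and H1FX -0.77 ± 0.51 and -0.27 ± 0.50.

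RNAs that lack a poly-A tail, a list made after the counts had been seen, had few reads in these libraries. Of the 6 RNAs in the list, only 3 were among the genes counted by the authors. For the rest nothing can be said. RMRP, the RNA of RNase MRP, had 25 and 15 counts in control cells, 31 and 42 at 24 h, 43 and 38 at 3 days and 30 and 30 at 7 days. All exposed libraries were above both controls, also in CPM, where RMRP had 3.12 and 3.91 at 24 h, against 2.20 and 1.54 in control cells. Whether carried-over RNA without a tail had a part in the histone counts was not tested.

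The 14 genes without any read were in part genes whose reads cannot be placed. Of 100-base windows of GENCODE v29 transcripts, less than 50% were unique to the gene in 8 of these 14 genes, against 3 of the 59 genes with a count. The 8 were HIST1H4J, HIST1H4K, HIST2H2AA3, HIST2H2AA4, HIST2H3A, HIST2H3C, HIST2H4A and HIST2H4B, several of which have a near-identical copy in the HIST2 cluster. For them a count of 0 says nothing of the gene's level. The 3 with counts were HIST1H2AI, HIST1H2AJ and HIST2H3D, whose counts are uncertain for the same reason. A count of 0 allows up to 3 reads, or 0.264 to 0.331 CPM in a library and 0.0367 CPM over all 8. In all, 17 of the 73 genes overlap a further GENCODE gene, and without a stated strand setting reads of such pairs, HIST1H2BD, HIST1H3D, HIST1H2AM and HIST2H2AB among the tested ones, cannot be told apart.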

How the data were processed

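Each deposited table, made by the authors, lists whole-number read counts by gene symbol for 1 of the 8 libraries. The submitters' processing notes name Trim Galore, Bowtie2 and SAMtools, DESeq2 (1.8.1), R (3.2.3) and the builds GRCh37 and hg19. How the reads were counted, with which strand setting and annotation, is not given in the sources used here. Beads carrying poly-T were used to select mRNA, per the labels' protocols. The 5 summary entries of each table, 42.6% to 57.5% of reads, entered neither library sizes nor tests.

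The genes were selected by symbol, and the context lists by function, with earlier results of these data known. Every histone gene that passed the count filter is named, as is every other one with at least 20 counts over all libraries, along with 14 context genes. The list of RNAs without a poly-A tail, the 2 octamer genes and the division at a span of 1000 bases were chosen after values had been seen.

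From the counts, genes were kept with edgeR 4.0.16 (filterByExpr, minimum count 10, minimum total 15) in R 4.3.3, which left 12536 genes and 20 histone genes. Sizes of libraries were scaled by TMM, and a quasi-likelihood model with 1 coefficient per group was fitted to all 8 libraries, leaving 4 residual degrees of freedom, with Benjamini-Hochberg adjustment over all genes tested. CPM values are counts divided by the scaled library size, on the usual scale. Summed CPM values were compared by the ratio of group means, without a test. Log2 differences between replicates were taken with a prior count of 2. Exact intervals are Clopper-Pearson at 95%. The script was tested on simulated data. Alternatives were DESeq2 1.42.0, limma-voom 3.58.1, other scalings and filters, the compared groups alone, a replicate block and leaving out libraries. Replicates of no group agreed within sampling noise, with a chi-square per degree of freedom of 24.2 to 94.7.

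All 73 symbols matched RefSeq (GRCh38.p14), used for spans and names, and 65 had a RefSeq promoter entry. GENCODE v29 (GRCh38) gave stem-loops and the share of 100-base windows found in no other gene, apart from genes that overlap the same place. The authors' build differs, so positions are given only for the printed promoters.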

Additional observations from a re-analysis of the deposited data

How the results depend on the processing

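No histone gene was called in any of the 7 tests under any alternative run, or when any library was left out (0 to 0 in each). For the 11 genes with at least 100 counts, 610 of 639 fold changes against control kept their direction and 29, in 7 genes, turned. The lowest adjusted p was 0.0885, for HIST1H4C at 7 days. HIST1H4C kept its direction at 3 and 7 days, HIST1H2BK and HIST2H2BE at all 3 times under 20 alternatives and HIST1H2BC under 19. The summed level of all histone genes had a log2 ratio to control of -0.29 at 24 h, -0.06 at 3 days and -0.21 at 7 days. With total gene counts as library sizes it was -0.16 at 3 days and -0.32 at 7 days, and without HIST1H2BK it was 0.34 and 0.24, since that gene held 48.5% of the counts. Leaving out each library in turn, the ratios ran from -0.32 to -0.25, -0.09 to -0.03 and -0.24 to -0.17. With a replicate block, HIST1H1D had log2 fold changes of 0.14 at 24 h, -0.11 at 3 days and -0.14 at 7 days, and with limma-voom -0.45 at 3 days and -0.24 at 7 days. Across genes, the replicate differences correlated at 0.81 between 3 and 7 days, at 0.34 and 0.32 between control cells and these groups, and from -0.60 to -0.31 between the 24 h group and the others, so the shared numbers did not pair the samples over all 4 groups. The block called 0 histone genes. With the numbers crossed at 24 h, an alternative chosen after seeing the data, HIST1H1D had -0.21 at 3 days and -0.22 at 7 days, 0 histone genes were called, and 6 and 5 genes of any kind at 3 and 7 days. Without replicate 2 at 3 and 7 days, also chosen after seeing the data, HIST1H1C had 0.09 and HIST1H1D -2.18 at 3 days, and HIST1H1D had -1.40 and HIST1H2BD 0.06 at 7 days. In that alternative, 334 and 374 genes of any kind were called at 3 and 7 days, against 0 with all libraries. The causes were not tested. Leaving out 1 library at a time, folds that turned ran from -0.75 to 0.08 for HIST1H1C at 24 h and -0.76 to 0.19 at 3 days. HIST1H1D ran from -0.77 to 0.43, -2.19 to 1.01 and -1.40 to 0.79 at the 3 times. At 24 h HIST1H2AC ran from -1.08 to 0.07, HIST1H2AM from -0.99 to 0.21, HIST1H3D from -0.48 to 0.13 and HIST1H4C from -0.54 to 0.27. HIST1H2BD ran from -0.48 to 0.10 at 3 days and -0.67 to 0.07 at 7 days. HIST1H2AC and HIST1H2AM had at most 24 and 30 counts in a library, which limits their precision.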

Other observations

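An H4 gene and an H2B gene under 20 counts, chosen after their values were seen, had reads that went with particular libraries. HIST1H4D had 2 and 5 counts in control cells, 6 and 3 at 24 h, 2 and 1 at 3 days and 0 and 0 at 7 days. HIST1H2BM had 1 and 1 counts in control cells, 1 and 0 at 24 h, 3 and 6 at 3 days and 0 and 6 at 7 days. RPPH1, the RNA of RNase P, which has no poly-A tail, had 7 and 5 counts in control cells, 2 and 10 at 24 h, 17 and 4 at 3 days and 12 and 3 at 7 days, with more reads in replicate 1 at both late times. These counts are too few for a test.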
